A study of Mus musculus with 18 samples.

Results

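The comparison described here set CD8+ T cells in which Tra2b had been edited against cells that carried a scrambled control sequence, both taken 4 days after stimulation. It used 10 of the 18 libraries of the series, namely the 2 labelled Tra2bKO and the 8 labelled Control, chosen by those labels and the day alone. All 10 came from OT-I mice, whose T cells carry one transgenic receptor for an ovalbumin peptide, SIINFEKL. The cells were taken from spleen and lymph nodes. Edited and control cells alike were stimulated with SIINFEKL plus anti-OX40 and anti-41BB, antibodies to 2 costimulatory receptors. The other 8 libraries, from naive cells, were left out of the comparison. The labels give no age, guide sequence or editing efficiency. They also do not tell whether each library had its own mouse, so every p-value reflects spread among libraries that could be technical only.

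Tra2b encodes transformer-2 beta, an RNA-binding protein with arginine and serine rich ends that binds GAA-rich stretches of exons and promotes their inclusion in the mRNA. It also acts on its own transcript: inclusion of a poison exon, which carries stop codons, yields an mRNA that makes no full-length protein. Stimulated CD8+ T cells change splicing, metabolism and surface receptors as they divide and become effector cells. The series' title links the poison exon to stimulation through the T cell receptor and to T cell fate. The comparison therefore asks which exons and genes differed when Tra2b was edited.

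Total counts per library were 79197461 and 93495846 in edited libraries 1 and 2 and between 73735681 and 93972513 in the controls. Markers of CD8 T cells were present: Cd8a stood at 538 and 429.9 against 384 to 503 CPM, Cd3e at 536 and 513 against 514 to 617 CPM, and the OT-I segment Trbv12-1 held at least 99.4% of the variable beta segment counts in every library. The 9 CD8 T cell markers summed to 5390 and 4650 against 4990 to 6020 CPM. Of these, 0 were called higher and 3 lower at an adjusted p under 0.05, beside 7.62% and 7.24% of all genes tested. Cd5 (148 and 143 against 159 to 227 CPM) and, as given below, Trac and Lck lay below every control. Cd4, Foxp3, Pax5 and Ms4a1 were under 1 CPM in all 10. The 10 erythroid and platelet markers summed to 130 CPM in edited library 1, 13.4 in edited library 2 and 0.531 to 18.1 in the controls. The 11 macrophage and monocyte markers summed to 59.6, 34.6 and 15.1 to 44.1 CPM, and in the edited libraries mostly through Lyz2. Mitochondrially encoded genes held 1.8% of the counts in edited library 1, 1.04% in edited library 2 and 0.813 to 1.03% in the controls. The 16 markers of B cells and MHC class II summed to 945, 737 and 525 to 845 CPM, mostly through the immunoglobulin gene Ighm and the invariant chain Cd74. In these bulk samples, fewer cells of a type and less RNA per cell cannot be told apart. Control libraries 1 and 2 lay both above or both below all of controls 3 to 8 in 701 of 7435 abundant genes. Some genes would lie so with no difference between these libraries, and that share was not measured. In 32 of the 7435 genes the means of controls 1 and 2 and of controls 3 to 8 were at least 2-fold apart.

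The gene that was edited was measured first. Its count does not check the edit, because transcripts of an edited gene can still be counted. Tra2b stood at 355 and 359 CPM against 334 to 510.2 CPM with a median of 468. Both edited libraries lay inside the range of the controls and the difference did not pass (log2 fold change -0.34, SE 0.126, adjusted p = 0.0899). The call depended on the setting. Tra2b was called lower against controls 3 to 8 alone, and also after the correction for length and GC described below. Against controls 1 and 2 alone it was not called. Levels are CPM, estimated counts scaled to library size by the trimmed mean of M-values (TMM), with the 2 edited libraries in the order 1 and 2 before the lowest to highest of the 8 controls. Transcripts with the poison exon held 1.04% (294 of 28151 counts) and 1.02% (345 of 33747) of the gene's counts in the edited libraries. In controls 1 to 8 they held 3.73, 6.9, 5.57, 6.74, 8.25, 10.7, 7.09 and 6.03%. Both edited libraries lay below every control, with control library 1 the lowest and control library 6 the highest. The difference of -5.84 percentage points was tested by exact permutation (two-sided p = 0.0222), the smallest p that 45 splits of 2 against 8 libraries can give. This difference was already known from earlier work on these data, so the p-value serves as a description and not as a new test.

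Exons of genes that were less included in the edited libraries, or that are known targets of TRA2B, are shown here so that their letters can be read beside the known preference for GAA. Each is the sense strand, 5′ to 3′, from transcripts of GENCODE M21 (GRCm38), in lower case with every match to the letters AGAA in capitals. For Tra2b only the part of the poison exon annotated as coding is printed (chr16:22259184-22259261, minus strand). For Nasp the long exon of 975 bp is represented by the 150 bases with most matches (chr4:116611209-116611358, minus strand). The remaining exons are whole and annotated as coding: Nasp 81 bp (chr4:116614330-116614410, minus strand), Chek1 (chr9:36723797-36724020, minus strand), Itgb1 (chr8:128710253-128710475, plus strand), Rnpep (chr1:135272362-135272478, minus strand), Hpf1 (chr8:60893701-60893860, plus strand), Tmpo (chr10:91152628-91152738, minus strand), Cyba (chr8:122426936-122427019, minus strand) and Slamf6 (chr1:171941625-171941696, plus strand).
Tra2b poison exon, coding stretch: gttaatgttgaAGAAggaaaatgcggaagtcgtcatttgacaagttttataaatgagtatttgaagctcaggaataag
Nasp long exon, 150 bases: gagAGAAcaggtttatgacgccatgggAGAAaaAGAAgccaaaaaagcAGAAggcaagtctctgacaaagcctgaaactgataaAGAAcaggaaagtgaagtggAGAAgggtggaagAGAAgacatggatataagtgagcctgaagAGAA
Nasp short exon: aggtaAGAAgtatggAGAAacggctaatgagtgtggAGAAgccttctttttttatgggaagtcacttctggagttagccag
Chek1 exon: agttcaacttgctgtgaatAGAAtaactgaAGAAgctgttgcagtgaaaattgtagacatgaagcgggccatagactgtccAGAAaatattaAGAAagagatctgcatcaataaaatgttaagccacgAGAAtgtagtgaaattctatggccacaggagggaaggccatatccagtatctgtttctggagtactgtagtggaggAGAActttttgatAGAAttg
Itgb1 exon: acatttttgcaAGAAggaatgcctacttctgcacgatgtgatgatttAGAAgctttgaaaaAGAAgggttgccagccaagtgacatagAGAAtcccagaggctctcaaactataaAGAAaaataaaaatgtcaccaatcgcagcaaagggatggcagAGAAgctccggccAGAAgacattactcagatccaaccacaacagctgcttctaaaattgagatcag
Rnpep exon: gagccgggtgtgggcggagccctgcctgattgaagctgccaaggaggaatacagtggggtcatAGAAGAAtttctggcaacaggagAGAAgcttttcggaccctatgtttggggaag
Hpf1 exon: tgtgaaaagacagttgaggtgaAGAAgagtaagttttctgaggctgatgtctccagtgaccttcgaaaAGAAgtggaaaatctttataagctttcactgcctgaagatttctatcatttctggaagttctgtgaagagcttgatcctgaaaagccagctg
Tmpo exon: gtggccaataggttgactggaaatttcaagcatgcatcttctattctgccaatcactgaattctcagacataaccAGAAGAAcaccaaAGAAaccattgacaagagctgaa
Cyba exon: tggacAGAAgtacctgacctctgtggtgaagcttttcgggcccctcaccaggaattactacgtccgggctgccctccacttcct
Slamf6 exon: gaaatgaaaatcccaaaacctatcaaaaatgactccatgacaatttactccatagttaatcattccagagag
For contrast, 2 exons that were more included in the edited libraries are Madd (chr2:91160317-91160370, minus strand) and Zfp655 (chr5:145235737-145235863, plus strand).
Madd exon: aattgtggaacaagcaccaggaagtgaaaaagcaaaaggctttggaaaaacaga
Zfp655 exon: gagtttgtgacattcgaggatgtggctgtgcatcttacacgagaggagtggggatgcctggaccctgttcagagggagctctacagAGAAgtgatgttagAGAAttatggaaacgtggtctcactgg
The motif was found 7 times in the Itgb1 exon, 7 times in the Chek1 exon, 23 times in the whole long Nasp exon, and 3 times in the Rnpep exon. In the whole Tra2b poison exon of 276 bp it was found 12 times (4.35 per 100 bases), of which 1 lies in the printed stretch. The less included Slamf6 exon and the more included Madd exon held 0 matches. Per 100 bases the more included Zfp655 exon held 1.57, more than the less included Hpf1 (1.25) and Cyba (1.19) exons.

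Over the whole annotation, 5075 exons of 3161 genes could be tested, and 53 (1.04%) in 46 genes were called at an adjusted p under 0.05. Of these, 38 were less included in the edited libraries (0.749% of those tested) and 15 were more included (0.296%). Inclusion is the share of estimated counts in transcripts with the exon, out of those with it and those that join its flanks without it. AGAA was present in 30 of the 38 less included exons (78.9%), in 6 of the 15 more included exons (40%) and in 53.8% of all exons tested. Per 100 bases it occurred 1.51, 0.47 and 0.862 times, which allows for the longer less included exons (median 143 bp against 102 bp for all). Over all exons tested, 4.12% had both edited libraries above all 8 controls and 6.96% had both below. The AGAA shares are a description of letters in the exons, with no test. The 38 less included exons came from 32 genes. Some share transcripts, and the 2 of Mcee overlap, so they are not 38 separate events. For 8 of them the skipping transcripts were listed at 0 in all 8 controls. Without edited library 1, 82 exons were called (9 of the 15 more included and 21 of the 38 less included among them), and without edited library 2, 97 (9 and 21).

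**Figure D1:**
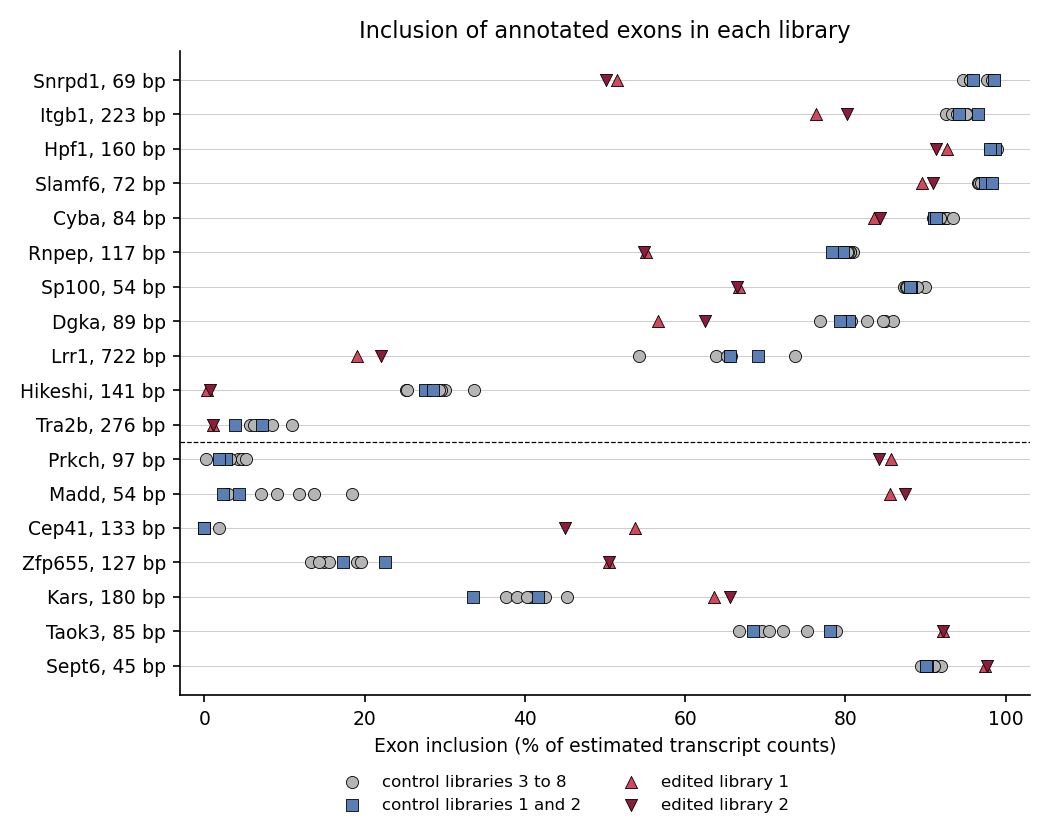
Inclusion of 18 annotated exons (percent of estimated transcript counts, horizontal axis) in each library, 1 point per library, with the less included exons above the dashed line and the more included ones below it. For every exon drawn, both edited libraries lie outside the range of the 8 controls, for example at 55.1 and 54.8% for Rnpep against 78.4 to 80.9%.

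Among the less included exons with clear counts of both forms in all libraries, that of Rnpep, an aminopeptidase that removes basic residues, stood at 55.1 and 54.8% against 78.4 to 80.9% with a median of 80.3% (log2 odds difference -1.72, SE 0.17, adjusted p = 0.00091). The exon of Sp100, a component of PML nuclear bodies, was included in 66.7 and 66.5% against 87.3 to 89.9% with a median of 88.1% (log2 odds difference -1.91, SE 0.166, adjusted p = 0.000341). Both edited libraries were close to each other in these exons and lay below every control. Itgb1 encodes the beta 1 integrin chain, and its exon stood at 76.3 and 80.2% against 92.5 to 96.5% with a median of 94.1% (log2 odds difference -2.23, SE 0.267, adjusted p = 0.00285). In Hpf1, the factor that directs PARP1 to serine residues, 4 overlapping measures of the same gene fell, of which the printed exon stood at 92.7 and 91.2% against 98 to 99% with a median of 98.4% (log2 odds difference -2.44, SE 0.279, adjusted p = 0.00206). These 4 share transcripts and are not 4 separate events.

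Further exons were less included in the edited libraries. Snrpd1, a core Sm protein of the spliceosome, had an exon of 69 bp at 51.5 and 50.1% against 94.6 to 98.5% with a median of 96.8% (log2 odds difference -4.96, SE 0.612, adjusted p = 0.00348), measured on 608 or more counts per library. These come from 1 transcript with the exon and 1 without it, which together held only a small part of the gene's counts. Hikeshi, the carrier of HSP70 into the nucleus, had an exon of 141 bp at 0.333 and 0.696% against 25.1 to 33.6% with a median of 28.9% (log2 odds difference -6.35, SE 0.317, adjusted p = 3.53e-06). An exon of Lrr1, a leucine-rich repeat protein of a ubiquitin ligase, stood at 19 and 22.1% against 54.2 to 73.7% with a median of 65.5% (log2 odds difference -2.88, SE 0.371, adjusted p = 0.00416). Smaller shifts were measured in other genes. Dgka, which consumes diacylglycerol, stood at 56.6 and 62.5% against 76.8 to 85.9% with a median of 81.7%. The SLAM family receptor Slamf6 stood at 89.6 and 90.9% against 96.5 to 98.2% with a median of 97%, and Cyba, a subunit of the NADPH oxidase, at 83.5 and 84.4% against 90.9 to 93.4% with a median of 92.1%. The exon of the splice site factor U2af1 stood at 70.7 and 73.4% against 84 to 92% with a median of 89.6% and that of Tmpo, a lamina-associated protein, at 93.5 and 94.3% against 97.6 to 98.7% with a median of 98.3%. In all of these, the edited libraries lay below every control. The Dgka exon, the Slamf6 exon, the Cyba exon, the U2af1 exon and the Tmpo exon lost the call without edited library 1 (adjusted p from 0.054 to 0.186). The Cyba exon and the U2af1 exon lost the call without edited library 2 (adjusted p from 0.0638 to 0.12). The U2af1 exon lost it without control library 3, 4, 5, 6, 7 or 8 (adjusted p from 0.0611 to 0.0766).

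Among the exons that were more included, several were rare in the controls. An exon of Prkch, protein kinase C eta, stood at 85.7 and 84.2% against 0.185 to 5.2% with a median of 2.96% (log2 odds difference 7.91, SE 1.08, adjusted p = 0.00612). The printed exon of Madd, a protein of MAP kinase and death receptor signalling, stood at 85.6 and 87.4% against 2.38 to 18.4% with a median of 8.04% (log2 odds difference 6.39, SE 0.811, adjusted p = 0.00416). A neighbouring one of 63 bp stood at 90.2 and 93.2% against 25.7 to 72.1% with a median of 46.5%. Cep41, a centrosomal protein, had an exon at 53.7 and 45% against 0 to 1.81% with a median of 0%. The Cep41 value rests on 1 transcript with the exon, listed at 0 in every control but library 6, where it held 15 counts. Such a 0 can be a failed estimate. In Prkch and Madd, transcripts with the exon held most of the counts in both edited libraries and few in every control. Zfp655, a zinc finger gene, stood at 50.5 and 50.4% against 13.3 to 22.5% with a median of 16.4% (log2 odds difference 2.33, SE 0.344, adjusted p = 0.01). Smaller rises were measured for exons of the lysyl-tRNA synthetase Kars (63.6 and 65.6% against 33.5 to 45.2% with a median of 40.5%), the kinase Taok3 (92.2 and 92.1% against 66.7 to 78.8% with a median of 71.3%) and the septin Sept6 (97.4 and 97.6% against 89.5 to 91.9% with a median of 90.8%). The Madd exon and the Zfp655 exon lost the call without edited library 1 (adjusted p from 0.0562 to 0.0612). The Madd exon, the Zfp655 exon and the Kars exon lost the call without edited library 2 (adjusted p from 0.0525 to 0.119).

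A further group rests on few counts or on transcripts listed at 0 in whole groups. For 8 less included exons of 7 genes, the skipping transcripts were listed at 0 in all 8 controls. Among them were Ergic2 (80.7 and 79.2% against 100% in all 8 controls) and Ckap5, a microtubule polymerase (94.5 and 73.1% against 100% in all 8 controls). They also held the galectin Lgals8 (93.1 and 84% against 100% in all 8 controls) and the deacetylase Sirt1 (76.4 and 83.8% against 100% in all 8 controls). Other less included exons had few counts or differed between the edited libraries. Nf1, the RAS regulator neurofibromin, stood at 30.0 and 0% against 94.7 to 100% with a median of 100% on as few as 99 counts in a library. Mcee, an epimerase of propionate use, stood at 8.92 and 24.4% against 71.9 to 91% with a median of 79.8%. In Vps54 (40.4 and 95.3% against 100% in all 8 controls) and Ocrl (94.3 and 76.7% against 100% in all 8 controls) the 2 edited libraries differed widely from each other. Itgad, an integrin alpha chain, went the other way at 100 and 100% against 0% in all 8 controls, on as few as 75 counts in a library. Such listings come from the assignment of reads to overlapping transcripts, and a 0 can be a failed estimate. Gtf2a2, a subunit of TFIIA, was listed without its skipping form in the edited libraries, at 100 and 100% against 86.9 to 92.8% with a median of 89.1%. The Vps54 exon lost the call on the arcsine square root scale (adjusted p = 0.0747). The Nf1 exon and the Mcee exon lost the call against control libraries 3 to 8 alone (adjusted p from 0.0528 to 0.0697). The Mcee exon lost the call without edited library 1 (adjusted p = 0.179). The Nf1 exon lost the call without edited library 2 (adjusted p = 0.119). The Mcee exon lost it without control library 6 (adjusted p = 0.0513).

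Known TRA2B targets were examined by name. Nasp encodes a histone chaperone of dividing cells, and its long exon stood at 3.03 and 3.76% against 5.26 to 13.9% with a median of 8.39% (log2 odds difference -1.40, SE 0.392, adjusted p = 0.192), its short one at 74 and 79.3% against 84.7 to 92.4% with a median of 87.7% (adjusted p = 0.148). In Chek1, the checkpoint kinase of S phase, the printed exon stood at 73.9 and 31.9% against 91.6 to 100% with a median of 98% (log2 odds difference -7.70, SE 3.09, adjusted p = 0.363). In all 3 exons both edited libraries lay below every control, yet none passed the adjusted threshold. The poison exon of Tra2b, which is also on the list of targets, did pass in the same exon test. It stood at 1.08 and 1.06% against 3.77 to 10.9% (log2 odds difference -2.75, SE 0.351, adjusted p = 0.00416). That difference was already known, as given above. The 2 edited libraries stood far apart for Chek1. Exons of Clk1 and Ankrd12 overlapped the controls, for example at 68.1 and 63.4% against 61.4 to 73.8% with a median of 67.2% and 48.4 and 76.1% against 33.8 to 72.8% with a median of 40.1%. As for levels, of the 15 target genes listed, 13 were measured, 5 rose and 2 fell. Over all genes, 7.62% were called higher and 7.24% lower. Nasp stood at 96.9 and 87.6 CPM against 254 to 310.4 CPM with a median of 259 (log2 fold change -1.54, SE 0.0888, adjusted p = 3.11e-06). The SR protein kinase Srpk1 stood at 71.9 and 73.4 CPM against 145 to 163 CPM with a median of 159 (log2 fold change -1.12, SE 0.0641, adjusted p = 3.11e-06), with no overlap between the groups. Of the 46 genes with a called exon, 9 were also called higher in level and 10 lower. Among those with a level difference were Hpf1 (114 and 108 against 166 to 188 CPM, log2 fold change -0.69) and Prkch (536 and 575 against 311 to 401 CPM, log2 fold change 0.61), which kept the call in each alternative against more than 2 controls without the replicate block. Snrpd1 (204 and 169 against 189.5 to 249 CPM), Sp100 (409 and 348 against 351 to 475 CPM) and Hikeshi (93.2 and 88.5 against 85.2 to 101 CPM) were not called in level. For the TRA2B targets, 0 higher and 2 lower were called without edited library 2. For the TRA2B targets, 1 higher and 3 lower were called with the length and GC trend removed.

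At the level of genes, 2772 of 18651 tested (14.9%) were called: 1421 rose (7.62%) and 1351 fell (7.24%) by the quasi-likelihood test of edgeR (Benjamini-Hochberg adjusted). The median log2 fold change of all genes tested was -0.01. Of the genes that rose, 1171 had both edited libraries above all 8 controls, and of those that fell, 1308 had both below; over all genes tested, 11.3% and 12.4% lay so. Changes of 2-fold or more numbered 379 up and 322 down. Without edited library 1, 2405 genes were called, 961 of the rises and 768 of the falls among them. Without edited library 2, 651 were, with 281 of the rises and 306 of the falls. In these 2 fits the lone edited library was assumed to vary as the controls do.

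Levels moved with gene length in edited library 2, and little in edited library 1. Abundant genes, meaning the 7435 whose mean log2 CPM reached 4, were divided into 4 equal classes by exon length. The median log2 ratio to the controls in edited library 1 was -0.08 in the shortest class and 0.02 in the longest. In edited library 2 the medians were -0.22 and 0.28, and no control went beyond 0.12 in either direction. In the longest class 416 genes rose and 105 fell, and in the shortest 75 rose and 359 fell. With each library's trend on length and GC removed, 791 genes were called higher and 1782 lower, the median of all genes being -0.08, so 30.7% of the calls were rises in place of 51.3%. Against controls 3 to 8 alone 2762 genes and 58 exons were called, and against controls 1 and 2 alone, with 2 libraries on each side, 5 genes (2811 at an unadjusted p under 0.05) and 23 exons were. Against controls 1 and 2 alone, no gene list counted below had more than 1 call. For the other fits, list counts are given below where the calls in a direction moved by over 1.5 times. The lists were chosen with earlier results of these data known, so their shares of calls are a description. The part of gene length and of the control libraries in single results was not tested beyond the values given beside them.

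**Figure D2:**
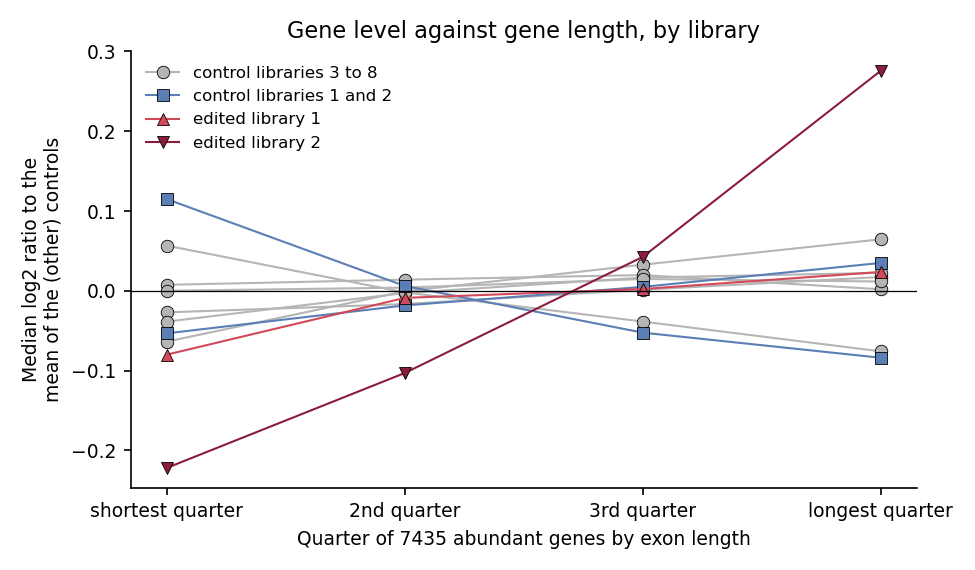
Median log2 ratio of 7435 abundant genes to the mean of the controls (for a control, of the other controls), by class of exon length, 1 line per library. Edited library 2 runs from -0.22 in the shortest class to 0.28 in the longest, while edited library 1 stays between -0.08 and 0.02 and the controls between -0.08 and 0.12.

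**Figure D3:**
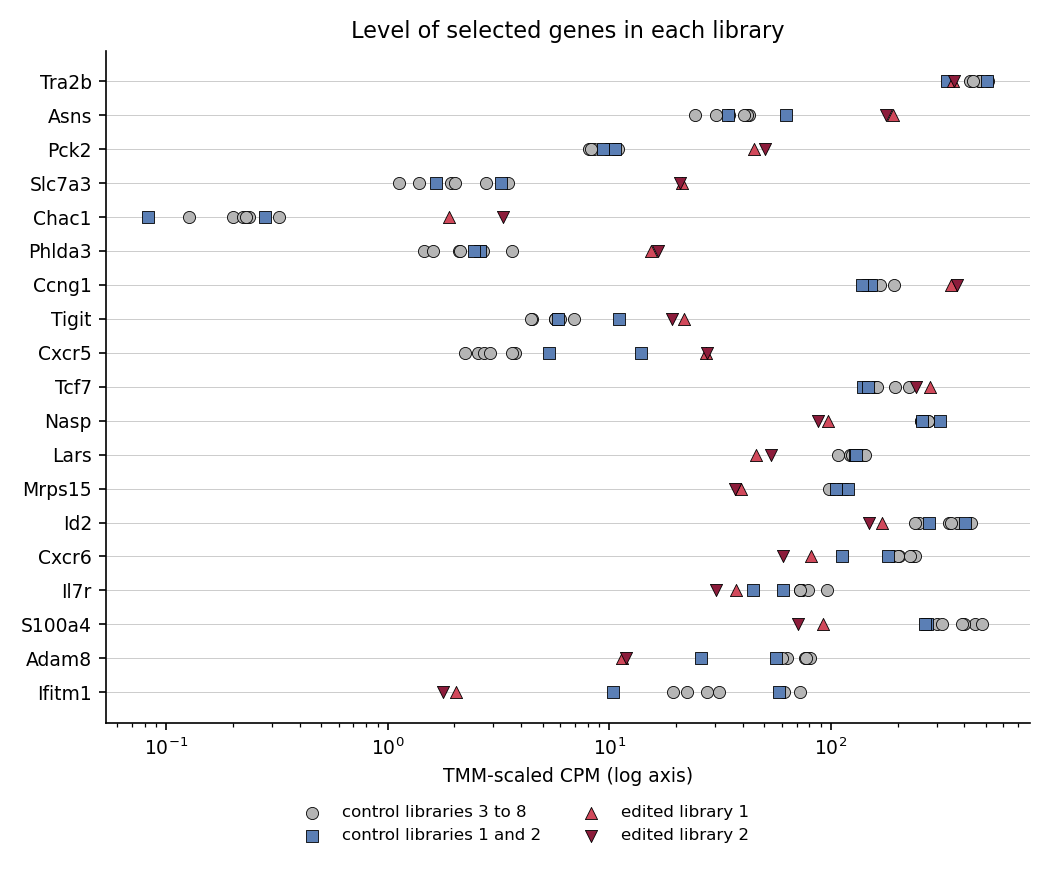
TMM-scaled CPM (log axis) of selected genes in each library, 1 point per library, with control libraries 1 and 2 drawn apart from 3 to 8. For Asns both edited libraries, at 190 and 178 CPM, lie above all 8 controls, for S100a4 both lie below them, and for Tra2b they lie inside their range.

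The 15 largest falls among abundant genes with no overlap between groups include the following. Ifitm1, an interferon-induced membrane protein, stood at 2.04 and 1.77 CPM against 10.4 to 72.6 CPM with a median of 29.3 (log2 fold change -4.30, SE 0.828, adjusted p = 0.00725). The calcium-binding protein S100a4 stood at 91.9 and 71.3 CPM against 266 to 481 CPM with a median of 353 (log2 fold change -2.14, SE 0.246, adjusted p = 0.000354). The sheddase Adam8 stood at 11.4 and 11.9 CPM against 25.8 to 80.5 CPM with a median of 70.2 (log2 fold change -2.48, SE 0.363, adjusted p = 0.00147). The edited libraries were close to each other and below every control in all 3. Costimulatory and cytokine receptors were among the falls. Tnfrsf25, the death receptor 3, stood at 3.86 and 2.5 against 5.72 to 42.6 CPM and Tnfrsf4, which is OX40 itself, at 10.1 and 9.63 against 18.9 to 62.1 CPM. The interleukin 1 decoy receptor Il1r2 stood at 2.91 and 3.14 against 8.88 to 52.7 CPM. Others were the fatty acid desaturase Fads2 (3.68 and 3.95 against 9.82 to 39.7 CPM) and Utf1 (7.87 and 8.54 against 21.7 to 51.7 CPM). Angptl2 (5.79 and 5.64 against 13.8 to 38.6 CPM), the adhesion protein Tns1 (4.87 and 5.65 against 9.9 to 26.1 CPM) and Palm (6.63 and 7.87 against 11.7 to 33.1 CPM) also fell. So did the quiescence gene Slfn1 (14.2 and 12.7 against 23.2 to 78.2 CPM), Gstt3 (4.97 and 5.53 against 10.4 to 28.3 CPM) and the GTPase Tgtp1 (26 and 16.4 against 45.2 to 94.4 CPM). Tgtp1 has a near-identical neighbour, Tgtp2, and Ifitm1 has related copies, so the split of their counts is uncertain. Against control libraries 1 and 2 alone the log2 fold changes were over 1.5 times smaller for Tnfrsf25 (-1.48 against -3.06), Il1r2 (-1.66 against -3.05) and Fads2 (-1.60 against -2.50). The same held for Tns1 (-1.02 against -1.87) and Gstt3 (-1.03 against -1.85). Ifitm1, Tnfrsf25, Tnfrsf4, Il1r2, Fads2 and Slfn1 lost the call by limma voom with quality weights (adjusted p from 0.0747 to 0.177). Ifitm1, Tnfrsf25, Tnfrsf4, Il1r2, Fads2, Slfn1 and Gstt3 lost the call without edited library 1 (adjusted p from 0.0503 to 0.147). Ifitm1, Tnfrsf25, Tnfrsf4, Il1r2, Fads2, Utf1, Angptl2, Tns1, Slfn1, Gstt3 and Tgtp1 lost the call without edited library 2 (adjusted p from 0.0564 to 0.222).

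The 15 largest rises, chosen by the same rule, include the following. Pck2, the mitochondrial PEP carboxykinase, stood at 45.2 and 50.2 against 8.09 to 10.9 CPM, the asparagine synthetase Asns at 189.7 and 178 against 24.3 to 62.4 CPM and the translation repressor Eif4ebp1 at 54.2 and 52.2 against 11.5 to 17.2 CPM. For these the edited libraries lay close together. Trp53inp1, a p53 target, stood at 49.9 and 98.1 against 10.9 to 27.3 CPM, and the interleukin 6 family receptor chain Il6st at 47.9 and 91.4 against 18.3 to 32.4 CPM. The inhibitory receptor Cd72 stood at 41.5 and 34.9 against 8.27 to 27.6 CPM and the small nucleolar RNA host gene Snhg3 at 41.4 and 34.5 against 12.8 to 20.3 CPM. Several long genes were high mainly in edited library 2: the nuclear pore protein Ranbp2 (82.7 and 307 against 53.7 to 75.1 CPM), the zinc finger gene Zfp26 (21.9 and 70.8 against 14.1 to 20.4 CPM) and the apoptosome scaffold Apaf1 (52.7 and 145 against 36.2 to 45.6 CPM). Ankrd44 (144 and 356 against 84 to 132 CPM), Pogk (32.2 and 51.5 against 12.7 to 24.2 CPM) and Kidins220 (36.5 and 86.3 against 20.8 to 31.4 CPM) did so too. Against control libraries 1 and 2 alone, the log2 fold change of Cd72 was 0.67, against 1.45 over all controls. Cd72 is also a B cell gene, and markers of B cells lay on both sides of the controls. Ighm stood at 785 and 614 against 364 to 436 CPM (adjusted p = 0.000184) and Cd22 at 21.3 and 27.8 against 4.06 to 17.5 CPM (adjusted p = 0.0899), above every control in both edited libraries. Cd79b (5.51 and 3.29 against 5.81 to 9.16 CPM), Cd74 (75.3 and 58 against 92.6 to 313 CPM) and H2-Ab1 (11.6 and 9.12 against 14.1 to 63.3 CPM) lay below every control. Ighd (3.29 and 2 against 1.22 to 2.03 CPM) and Igkc (29.5 and 13.3 against 10.5 to 25 CPM) overlapped the controls, and Pax5 and Ebf1 were below 0.1 CPM in all 10. Their part in the rise of Cd72 was not tested. Cd72 lost the call without edited library 1 (adjusted p = 0.136). Trp53inp1, Il6st, Cd72, Ranbp2, Zfp26, Apaf1, Ankrd44, Pogk and Kidins220 lost the call without edited library 2 (adjusted p from 0.0507 to 0.397).

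ATF4 is the transcription factor made when translation initiation is curbed by amino acid shortage or other stress, and it switches on amino acid synthesis and transport. Of the genes listed as ATF4 and its targets, 13 of 24 measured members rose and 0 fell, with a median log2 fold change of 0.66 beside -0.01 for all genes and 7.62% of all genes called higher. Atf4 itself stood at 187 and 166 CPM against 114 to 128 CPM with a median of 120 (log2 fold change 0.54, SE 0.0641, adjusted p = 0.000462). The glutathione-degrading enzyme Chac1 stood at 1.89 and 3.31 CPM against 0.0832 to 0.322 CPM with a median of 0.225 (log2 fold change 3.47, SE 0.364, adjusted p = 0.000184). The pseudokinase Trib3 stood at 13.9 and 14.8 CPM against 2.04 to 4.52 CPM with a median of 3.97 (log2 fold change 1.93, SE 0.205, adjusted p = 0.000231). The alanine transaminase Gpt2 stood at 7.87 and 11.1 CPM against 0.678 to 3.28 CPM with a median of 1.48 (log2 fold change 2.54, SE 0.382, adjusted p = 0.00158). In each, both edited libraries lay above all controls. Cth, which makes cysteine, stood at 3.14 and 2.13 against 0.203 to 0.763 CPM, Aldh1l2, a mitochondrial folate enzyme, at 0.845 and 1.24 against 0 to 0.0643 CPM, and the stress protein Nupr1 at 1.79 and 1.66 against 0.305 to 0.921 CPM. The secreted protein Stc2 stood at 1.01 and 1.43 against 0 to 0.414 CPM and the mTORC1 regulator Sesn2 at 33.8 and 40.5 against 17.4 to 27.6 CPM. Aldh1l2 was at or near 0 in the controls, so no fold is given, and it was not called by DESeq2 (adjusted p = 0.0924). The transcription factor Ddit3 was not called (9.05 and 9.69 against 6.12 to 10.1 CPM, adjusted p = 0.162). The list counted 11 higher and 0 lower without edited library 1, 10 higher and 0 lower without edited library 2 and 13 higher and 0 lower with the trend removed. Nupr1 lost the call with all groups in one fit (adjusted p = 0.135). Nupr1 and Stc2 lost the call without edited library 1 (adjusted p from 0.0616 to 0.0787). Nupr1, Stc2 and Sesn2 lost the call without edited library 2 (adjusted p from 0.0895 to 0.254). Stc2 lost it without control library 6 or 8 (adjusted p from 0.0503 to 0.0556).

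The letters TGATGNAA, where N is any base, are those of a known ATF4 site. They were searched on both strands of the 300 bases around each RefSeq start (250 before and 50 after, GRCm38.p6). The promoters of 4 of the genes that rose show where they lie, each as 60 bases of the gene's strand, all before the annotated start, with the match in capitals: Asns (chr6:7693210-7693269, minus strand), Chac1 (chr2:119351023-119351082, plus strand), Pck2 (chr14:55540137-55540196, plus strand) and Nupr1 (chr7:126625547-126625606, minus strand).
Asns promoter: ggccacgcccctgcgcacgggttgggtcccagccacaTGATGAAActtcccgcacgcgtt
Chac1 promoter: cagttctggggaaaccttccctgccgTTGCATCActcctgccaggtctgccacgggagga
Pck2 promoter: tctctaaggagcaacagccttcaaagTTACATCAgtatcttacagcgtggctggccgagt
Nupr1 promoter: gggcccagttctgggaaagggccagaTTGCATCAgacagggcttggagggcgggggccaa
In Asns the match lies on the gene's strand and in the other 3 on the opposite strand. Of the ATF4 list genes with a promoter in the table, 5 of 10 that rose held a match, 3 of 10 that were not called held one, and so did 4.51% of all 27025 genes. A match is a description of letters and not a measured binding site.

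Amino acid transporters bring in the substrates of protein synthesis. Of those listed, 7 of 16 measured members rose and 0 fell (median log2 fold change 0.37), or 4 higher and 0 lower with the length and GC trend removed. The cationic amino acid transporter Slc7a3 stood at 21.3 and 20.7 CPM against 1.12 to 3.48 CPM with a median of 1.97 (log2 fold change 3.24, SE 0.308, adjusted p = 0.000143). The neutral amino acid transporter Slc1a4 was above all controls in both edited libraries (log2 fold change 2.44, SE 0.238, adjusted p = 0.000155), and the glycine transporter Slc6a9 stood at 2.31 and 3.18 CPM against 0 to 0.461 CPM with a median of 0.226 (log2 fold change 3.44, SE 0.634, adjusted p = 0.00366). Slc3a2, the heavy chain shared by several of them, stood at 219 and 211 CPM against 140.4 to 182 CPM with a median of 154, above every control. Its partner Slc7a5 was not called (125 and 187 against 63.2 to 127 CPM, adjusted p = 0.0705). Of the aminoacyl-tRNA synthetases, which load amino acids onto tRNA, 4 of 20 measured members rose and 2 fell. Over all genes, 7.62% were called higher and 7.24% lower. The asparaginyl-tRNA synthetase Nars rose (415 and 429.7 CPM against 247 to 321 CPM with a median of 289), whereas the leucyl enzyme Lars (46 and 53.7 CPM against 108 to 143 CPM with a median of 129, log2 fold change -1.37, SE 0.109, adjusted p = 4.99e-05) and the aspartyl enzyme Dars (227 and 201 CPM against 293 to 349.8 CPM with a median of 313) fell, with no overlap of the groups. Of serine and one-carbon enzymes 4 of 15 measured members rose and 1 fell, among them the mitochondrial folate enzymes Mthfd2 (295 and 285 against 199 to 241 CPM) and Shmt2 (433 and 446 against 285 to 393 CPM). For amino acid transporters and serine and one-carbon enzymes, 3 higher and 0 lower were called without edited library 2, with 1 and 2 for aminoacyl-tRNA synthetases. For aminoacyl-tRNA synthetases, 2 higher and 2 lower were called with the length and GC trend removed. Shmt2 lost the call without edited library 1 (adjusted p = 0.0804). Slc6a9 and Shmt2 lost the call without edited library 2 (adjusted p from 0.0606 to 0.193).

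The p53 protein responds to DNA damage and other stress by switching on genes of arrest and death. Of its target genes, 16 of 30 measured members rose and 1 fell (median log2 fold change 0.45, 13 higher and 1 lower without edited library 1, 7 higher and 0 lower without edited library 2). Phlda3, an inhibitor of AKT, stood at 15.4 and 16.6 CPM against 1.45 to 3.65 CPM with a median of 2.28 (log2 fold change 2.76, SE 0.242, adjusted p = 8.23e-05). The cyclin Ccng1 stood at 348 and 372 CPM against 138 to 192 CPM with a median of 153 (log2 fold change 1.21, SE 0.0971, adjusted p = 5.03e-05), and the BH3-only death gene Bbc3, or PUMA, at 6.25 and 7.15 CPM against 1.37 to 2.68 CPM with a median of 1.78 (log2 fold change 1.81, SE 0.253, adjusted p = 0.00109). Both edited libraries lay above all controls in each and close together. The kinase Plk2 (5.33 and 5.89 against 0.721 to 1.93 CPM), the membrane protein Perp (16.9 and 13.2 against 4.62 to 7.71 CPM), the polymerase Polk (29.4 and 37.4 against 18.2 to 21.3 CPM) and the p53 ligase Mdm2 (147 and 158 against 109 to 128 CPM) also rose. So did the cell cycle inhibitor Cdkn1a (15.9 and 15.3 against 4.91 to 10.6 CPM) and the death receptor Fas (55.5 and 46.7 against 29.7 to 42.9 CPM). Trp53 itself was not called (298 and 252 against 256 to 302 CPM, adjusted p = 0.956). In the BCL2 family, 1 of 14 measured members rose and 4 fell, beside 7.62% of all genes called higher and 7.24% lower. Bcl2, which protects from death, rose (48.5 and 57.3 CPM against 22 to 35.3 CPM with a median of 28.2). The A1 genes fell, for example Bcl2a1d (73.5 and 64.8 CPM against 96.3 to 125 CPM with a median of 111), whose near-identical copies make the split of counts uncertain. The initiator caspase Casp8 fell (155 and 131 CPM against 197 to 232 CPM with a median of 217). For the BCL2 family, 0 higher and 1 lower were called without edited library 2. Fas lost the call with the length and GC trend removed (adjusted p = 0.0768). Cdkn1a and Fas lost the call without edited library 1 (adjusted p from 0.123 to 0.123). Mdm2, Cdkn1a and Bcl2 lost the call without edited library 2 (adjusted p from 0.0573 to 0.169).

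**Figure D4:**
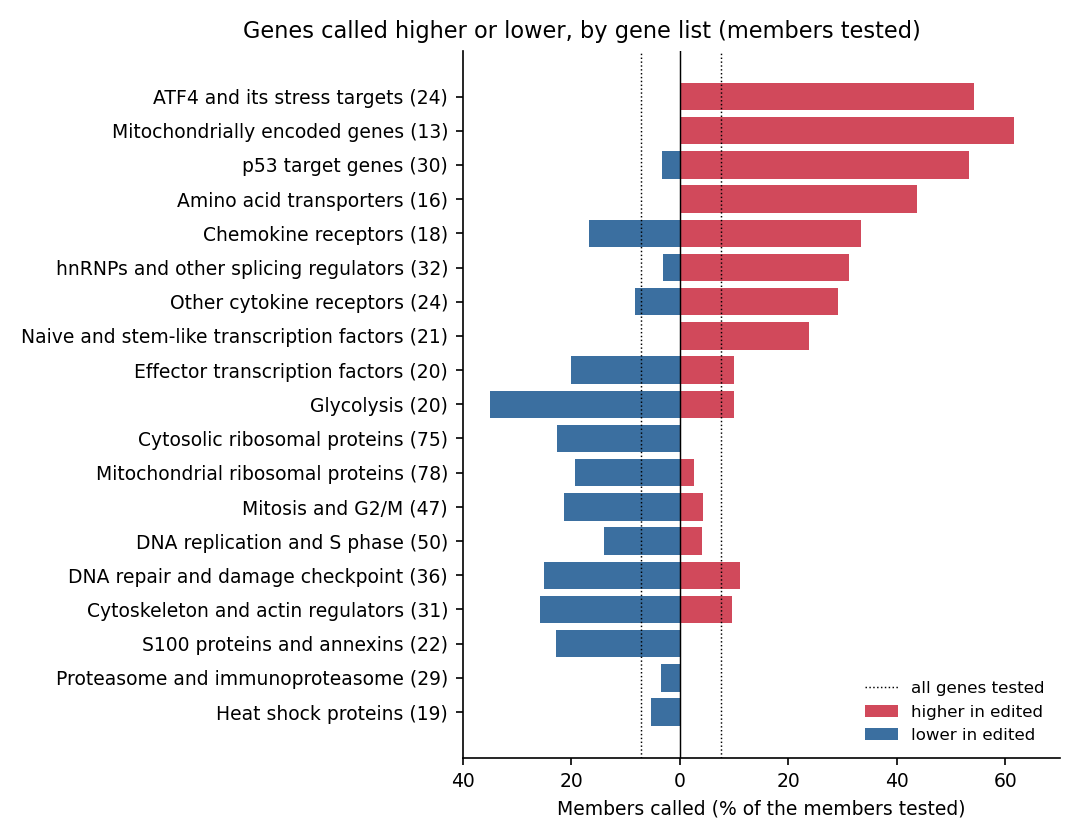
Share of the measured members of 19 gene lists called higher (right) or lower (left) in the edited libraries, in percent, with the number measured in brackets and dotted lines at the shares among all genes tested, 7.62% higher and 7.24% lower. ATF4 targets, mitochondrially encoded genes and p53 targets have over 50% of their members higher, and both ribosomal protein lists have calls mostly on the lower side.

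Genes of division and genome upkeep were called in both directions, beside 14.9% of all genes called (7.62% higher and 7.24% lower). Of mitosis genes, 2 of 47 measured members rose and 10 fell (median -0.11), and with the length and GC trend removed the count was 0 higher and 21 lower. The cytokinesis factor Ect2 stood at 88.9 and 105 CPM against 146 to 204 CPM with a median of 172 (log2 fold change -0.83, SE 0.116, adjusted p = 0.00117). The spindle protein Nusap1 stood at 235 and 221 CPM against 303 to 376 CPM with a median of 349.7 (log2 fold change -0.60, SE 0.0872, adjusted p = 0.00138) and the kinase Aurkb at 249 and 239.6 against 298 to 340.1 CPM. Of DNA replication genes, 2 of 50 measured members rose and 7 fell (median -0.07). Beside Nasp these falls included the single-strand binding subunit Rpa3 (57 and 45 CPM against 82.1 to 94 CPM with a median of 90.4), Pole2 (55.4 and 47.8 against 72.7 to 81.2 CPM) and Pola2 (167 and 149.5 against 202 to 236 CPM). Rrm2, the ribonucleotide reductase subunit of S phase, stood at 1282 and 1119 CPM against 1633 to 1818 CPM with a median of 1733 (log2 fold change -0.52, SE 0.066, adjusted p = 0.00064). Of DNA repair genes, 4 of 36 measured members rose and 9 fell (median -0.06). The mismatch repair gene Pms2 (39.4 and 38.1 against 51.8 to 63.7 CPM) fell, as did Rad50 (60.7 and 55.8 against 78.6 to 89.4 CPM) and the damage-marked histone H2afx (149 and 161 CPM against 263 to 375 CPM with a median of 308). Brca1 and Polq rose, with edited library 1 close to the highest control (64.3 and 134 against 48.6 to 64 CPM and 26.3 and 73.8 against 22.3 to 27.8 CPM). Rbl2, a pocket protein of quiescent cells, rose in both (147 and 209.7 CPM against 66.5 to 98.4 CPM with a median of 87.7). For mitosis genes, 4 higher and 10 lower were called without edited library 1, with 4 and 13 for replication genes. For mitosis genes, 1 higher and 5 lower were called without edited library 2, with 0 and 4 for replication genes and 0 and 6 for repair genes. For replication genes, 1 higher and 9 lower were called with the length and GC trend removed, with 2 and 11 for repair genes. For replication genes, 1 higher and 7 lower were called against controls 3 to 8 alone. Aurkb and Rrm2 lost the call with all groups in one fit (adjusted p from 0.13 to 0.22). Polq lost the call by limma voom with quality weights (adjusted p = 0.0521). Aurkb, Brca1 and Polq lost the call without edited library 2 (adjusted p from 0.0514 to 0.817).

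Ribosomal protein genes gave calls mainly on the lower side, beside 7.62% of all genes called higher and 7.24% lower. Of those of the cytosolic ribosome, 0 of 75 measured members rose and 17 fell (median -0.18, 0 higher and 4 lower without edited library 1 and 0 higher and 3 lower without edited library 2). Of those of the mitochondrial ribosome, 2 of 78 measured members rose and 15 fell (median -0.16), among them Mrps15 (39.4 and 36.9 CPM against 98 to 119.5 CPM with a median of 107, log2 fold change -1.50, SE 0.0917, adjusted p = 4.81e-06). Other members that fell were Mrpl33 (76.3 and 75.3 CPM against 147 to 171 CPM with a median of 152, log2 fold change -1.03, SE 0.0724, adjusted p = 1.85e-05) and Mrps34 (33.6 and 29.3 CPM against 49.9 to 89.2 CPM with a median of 61.7, log2 fold change -1.02, SE 0.179, adjusted p = 0.0035). Mrps21 fell by less (72.5 and 70.2 against 84.7 to 98.4 CPM). Rpl13a, of the large cytosolic subunit, stood at 418 and 409 CPM against 515 to 625 CPM with a median of 556. Ribosomal protein genes are short, and in the shortest class of genes the median log2 ratio to the controls was -0.08 and -0.22 in edited libraries 1 and 2. With the length and GC trend removed, the cytosolic list counted 0 higher and 16 lower and the mitochondrial list 0 higher and 17 lower. For mitochondrial ribosomal proteins, 0 higher and 11 lower were called without edited library 1. For mitochondrial ribosomal proteins, 1 higher and 3 lower were called without edited library 2. Mrps34 and Mrps21 lost the call without edited library 2 (adjusted p from 0.0646 to 0.0814).

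In energy metabolism, of the glycolysis genes 2 of 20 measured members rose and 7 fell (median -0.25). Over all genes, 7.62% were called higher and 7.24% lower. The lactate exporter Slc16a3 stood at 11.5 and 10.3 CPM against 18.3 to 39.8 CPM with a median of 24.6. The isomerase Tpi1 stood at 615 and 520 against 709.7 to 1065 CPM and pyruvate kinase Pkm at 1826 and 1693 against 2088 to 2738 CPM, below all controls in both edited libraries. Of enzymes of the TCA cycle and glutamine use 3 of 28 measured members rose and 6 fell, with a fall of the succinyl-CoA ligase subunit Sucla2 (74.9 and 54.1 CPM against 142 to 154 CPM with a median of 147, log2 fold change -1.19, SE 0.102, adjusted p = 7.67e-05). Falls were also measured for Dlat, a part of pyruvate dehydrogenase (74.3 and 67.4 CPM against 106 to 128 CPM with a median of 119), and fumarase Fh1 (130.5 and 109 CPM against 175 to 192 CPM with a median of 183). Nuclear genes of oxidative phosphorylation counted 0 higher and 2 lower of 32. The mitochondrially encoded genes counted 8 higher and 0 lower of 13 (median 0.56). Edited library 1 was above edited library 2, as in mt-Nd1 at 1769.9 and 979 CPM against 612 to 780.3 CPM with a median of 707 and mt-Co3 at 2124 and 1232 CPM against 796 to 1046 CPM with a median of 963. Without edited library 1 the count was 1 higher and 1 lower. This library also had the raised share of mitochondrial counts and the raised erythroid marker sum given above, and their part in these values was not tested. In lipid synthesis, beside Fads2, the desaturase Scd1 stood at 0.429 and 0.202 CPM against 0.69 to 2.06 CPM with a median of 1.18 and Fads3 was listed at 0 in both edited libraries (0 and 0 against 0.14 to 0.541 CPM). For glycolysis genes, 1 higher and 6 lower were called without edited library 1, with 0 and 5 for TCA cycle and glutamine enzymes and 0 and 1 for nuclear oxidative phosphorylation genes. For glycolysis genes, 0 higher and 0 lower were called without edited library 2, with 2 and 3 for TCA cycle and glutamine enzymes and 1 and 0 for nuclear oxidative phosphorylation genes. For glycolysis genes, 1 higher and 5 lower were called with the length and GC trend removed, with 0 and 5 for TCA cycle and glutamine enzymes, 1 and 3 for nuclear oxidative phosphorylation genes and 3 and 0 for mitochondrially encoded genes. For glycolysis genes, 1 higher and 8 lower were called against controls 3 to 8 alone. Slc16a3, Tpi1, Scd1 and Fads3 lost the call with all groups in one fit (adjusted p from 0.0522 to 0.0892). Slc16a3, Tpi1, Scd1 and Fads3 lost the call by limma voom with quality weights (adjusted p from 0.0582 to 0.0949). Slc16a3 and mt-Co3 lost the call without edited library 1 (adjusted p from 0.0541 to 0.0649). Slc16a3, Tpi1, Pkm and Scd1 lost the call without edited library 2 (adjusted p from 0.133 to 0.236).

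Other splicing regulators were called in both directions, beside 14.9% of all genes called (7.62% higher and 7.24% lower). Of the hnRNPs and related factors 10 of 32 measured members rose and 1 fell, but with the length and GC trend removed the count was 3 higher and 1 lower. Hnrnpa1 was the member that fell (313 and 299 CPM against 434 to 621 CPM with a median of 518, log2 fold change -0.79, SE 0.129, adjusted p = 0.00259), and the polypyrimidine tract protein Ptbp1 rose (584 and 637 CPM against 442 to 498 CPM with a median of 484). Ptbp3 (139 and 317 against 89.5 to 122 CPM) and Mbnl1 (593 and 1136 against 408 to 522 CPM) were high chiefly in edited library 2. Tra2a, the paralogue of Tra2b, stood at 93.3 and 97.6 CPM against 56.8 to 80.0 CPM with a median of 72.5 (log2 fold change 0.43, SE 0.113, adjusted p = 0.0251). Of the SR proteins 2 of 15 measured members rose and 1 fell. Srsf6 fell (272 and 241 CPM against 312 to 400.2 CPM with a median of 366) and Srsf10 rose (342 and 346 CPM against 208 to 271 CPM with a median of 250.1). Of the SR protein kinases 1 of 9 measured members rose and 1 fell. Of core spliceosome genes 2 of 28 measured members rose and 3 fell, with a fall of Sf3a2 (62 and 67.3 against 84.3 to 100.2 CPM), and of decay factors 2 of 16 measured members rose and 2 fell. For SR proteins, 5 higher and 1 lower were called without edited library 1, with 4 and 2 for core spliceosome genes and 3 and 1 for decay factors. For hnRNPs and related factors, SR protein kinases and decay factors, 0 higher and 1 lower were called without edited library 2, with 1 and 0 for SR proteins and 0 and 2 for core spliceosome genes. For SR proteins, 0 higher and 3 lower were called with the length and GC trend removed, with 0 and 2 for SR protein kinases, 1 and 4 for core spliceosome genes and 1 and 1 for decay factors. For SR proteins, 1 higher and 1 lower were called against controls 3 to 8 alone. Tra2a and Srsf10 lost the call with the length and GC trend removed (adjusted p from 0.255 to 0.322). Tra2a lost the call without edited library 1 (adjusted p = 0.0788). Ptbp1, Ptbp3, Mbnl1, Tra2a and Srsf6 lost the call without edited library 2 (adjusted p from 0.0739 to 0.214).

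Transcription factors set the state of a T cell. Of the naive and stem-like factors 5 of 21 measured members rose and 0 fell, with Tcf7, which encodes TCF1, at 279 and 241 CPM against 139 to 225 CPM with a median of 157 (log2 fold change 0.65, SE 0.15, adjusted p = 0.0141) and Zeb1 at 20.1 and 29 against 14 to 17.4 CPM. Lef1 was not called (128 and 118 against 100 to 127 CPM). Of the effector factors 2 of 20 measured members rose and 4 fell, beside 7.62% of all genes called higher and 7.24% lower. Id2, an inhibitor of E proteins that supports effector cells, stood at 169 and 148 CPM against 240.3 to 430.1 CPM with a median of 344 (log2 fold change -1.07, SE 0.212, adjusted p = 0.00668). The T-box factor Tbx21 stood at 235 and 236 CPM against 286 to 376 CPM with a median of 331 (log2 fold change -0.50, SE 0.0978, adjusted p = 0.00644) and the hypoxia factor Epas1 at 3.08 and 4.31 against 6.58 to 15.1 CPM. Both edited libraries lay below all controls in these. Irf4 and Prdm1, factors of strongly stimulated and terminal effector cells, rose, most in edited library 2 (43.3 and 83.3 against 30.1 to 36.6 CPM and 19.2 and 38 against 9.62 to 19.6 CPM). Eomes, a T-box factor of effector and memory cells, stood at 57.1 and 57.4 against 11.7 to 61.3 CPM and was not called (adjusted p = 0.237). Among surface markers of naive and memory cells the interleukin 7 receptor Il7r fell (37.4 and 30.3 CPM against 44.7 to 95.8 CPM with a median of 73, log2 fold change -1.08, SE 0.217, adjusted p = 0.00711), as did Dapl1 (74.5 and 72.1 CPM against 116 to 201 CPM with a median of 152). For effector factors, 3 higher and 2 lower were called without edited library 1. For naive and stem-like factors, 0 higher and 0 lower were called without edited library 2, with 0 and 1 for effector factors. For naive and stem-like factors, 2 higher and 1 lower were called with the length and GC trend removed. For naive and stem-like factors, 5 higher and 1 lower were called against controls 3 to 8 alone. Epas1 lost the call with all groups in one fit (adjusted p = 0.0852). Tcf7 and Epas1 lost the call without edited library 1 (adjusted p from 0.0618 to 0.115). Tcf7, Zeb1, Id2, Tbx21, Irf4, Prdm1, Il7r and Dapl1 lost the call without edited library 2 (adjusted p from 0.0692 to 0.466).

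Receptors that tune the response differed one by one. Of the inhibitory receptors 3 of 15 measured members rose and 2 fell, beside 7.62% of all genes called higher and 7.24% lower. Tigit stood at 21.7 and 19.2 CPM against 4.43 to 11.1 CPM with a median of 5.78 (log2 fold change 1.70, SE 0.253, adjusted p = 0.00155). Havcr2, or TIM-3, stood at 98.2 and 108 CPM against 31.2 to 70.7 CPM with a median of 56.5 and Ctla4 at 77.1 and 60.2 CPM against 27.1 to 46.4 CPM with a median of 41.9, whereas Cd160 fell (109 and 98.9 CPM against 131 to 163 CPM with a median of 139). Pdcd1, or PD-1 (269.8 and 262 against 268 to 360.1 CPM), and Lag3 (26.3 and 26.6 against 23.3 to 35.6 CPM) were not called. Of the chemokine receptors 6 of 18 measured members rose and 3 fell, or 4 higher and 4 lower with the length and GC trend removed. Cxcr5, the receptor for entry into B cell follicles, stood at 27.3 and 27.7 CPM against 2.24 to 13.9 CPM with a median of 3.26 (log2 fold change 2.57, SE 0.513, adjusted p = 0.00737), with control library 1 the highest control. Its log2 fold change was 1.53 against controls 1 and 2 and 3.21 against controls 3 to 8. Cxcr6, a receptor of effector and tissue cells, stood at 81.4 and 60.9 CPM against 112 to 239 CPM with a median of 203 (log2 fold change -1.48, SE 0.24, adjusted p = 0.00247). Cytokine receptors that rose included Il21r (199 and 199.5 CPM against 105 to 139 CPM with a median of 126), Ifnar2 (95.5 and 95 CPM against 38.9 to 61.9 CPM with a median of 55.7) and Ifngr1 (449 and 375 against 259.6 to 326 CPM). Of the costimulatory receptors 4 of 20 measured members rose and 2 fell. 4-1BB, encoded by Tnfrsf9 and stimulated together with OX40, was not called (182 and 165 against 122 to 179.8 CPM, adjusted p = 0.206). For inhibitory receptors, 1 higher and 1 lower were called without edited library 1, with 3 and 3 for chemokine receptors and 1 and 0 for costimulatory receptors. For inhibitory receptors, 2 higher and 0 lower were called without edited library 2, with 0 and 0 for chemokine receptors and 1 and 0 for costimulatory receptors. For costimulatory receptors, 2 higher and 5 lower were called with the length and GC trend removed. For inhibitory receptors, 5 higher and 2 lower were called against controls 3 to 8 alone, with 5 and 5 for chemokine receptors and 5 and 4 for costimulatory receptors. Havcr2, Ctla4 and Ifngr1 lost the call without edited library 1 (adjusted p from 0.0518 to 0.109). Havcr2, Cd160, Cxcr5 and Cxcr6 lost the call without edited library 2 (adjusted p from 0.0667 to 0.22).

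Signalling and effector genes were called in both directions, beside 14.9% of all genes called. Of T cell receptor and proximal signalling genes 6 of 31 measured members rose and 5 fell. Falls included the receptor constant segment Trac (839 and 742 CPM against 1019 to 1305 CPM with a median of 1153), the kinase Lck (1188 and 995 against 1259 to 1459.5 CPM) and Cd6 (173 and 159 against 208 to 313 CPM), and the ubiquitin ligase Cblb rose (104 and 192 against 65.8 to 85.3 CPM). Interferon-stimulated genes as a list counted 2 higher and 2 lower of 35 (median -0.26), and Ly6e fell (1313 and 1046 against 1588 to 1801 CPM). Nfkb1 fell (68.6 and 61.2 against 74.4 to 136 CPM) and its feedback inhibitor Tnfaip3 rose (49 and 57.9 against 27.6 to 38 CPM). Of granule genes 1 of 20 measured members rose and 1 fell. Granzyme B (Gzmb) stood at 356 and 276 against 189.9 to 460.5 CPM and perforin (Prf1) at 82.8 and 72.9 against 31.5 to 77.8 CPM, neither called. Gzmc, at low level, fell (0.618 and 0.585 against 1.21 to 3.23 CPM). Of effector cytokines and death ligands 4 of 16 measured members rose and 2 fell. The death ligand Fasl rose (77.4 and 63 CPM against 27.8 to 57.5 CPM with a median of 31.5), as did Il10 from near 0 (1.39 and 1.81 against 0 to 0.333 CPM). Of S100 proteins, annexins and related genes 0 of 22 measured members rose and 5 fell. These included the galectin Lgals1 (885 and 859 CPM against 1459.5 to 1879 CPM with a median of 1517, log2 fold change -0.85, SE 0.0945, adjusted p = 0.000318), S100a11 (169.9 and 156 against 205 to 289 CPM) and Crip1 (495 and 499 against 564 to 818 CPM). Of cytoskeletal genes 3 of 31 measured members rose and 8 fell, with the cofilin Cfl1 at 1987 and 1798 against 2288 to 2636 CPM. Pik3ip1, a brake on PI3 kinase, rose (25.9 and 23.3 CPM against 7.8 to 15.7 CPM with a median of 10.5). Heat shock proteins counted 0 higher and 1 lower of 19 and proteasome subunits 0 higher and 1 lower of 29. For granule genes, 1 higher and 0 lower were called without edited library 1, with 0 and 1 for effector cytokines and death ligands, 7 and 4 for cytoskeletal genes and 0 and 4 for proteasome subunits. For receptor signalling genes, 1 higher and 0 lower were called without edited library 2, with 0 and 1 for interferon-stimulated genes and cytoskeletal genes, 0 and 0 for granule genes, effector cytokines and death ligands, heat shock proteins and proteasome subunits and 0 and 2 for the S100 and annexin list. For receptor signalling genes, 3 higher and 6 lower were called with the length and GC trend removed, with 2 and 4 for interferon-stimulated genes, 0 and 2 for granule genes, 2 and 1 for effector cytokines and death ligands and 0 and 5 for proteasome subunits. For interferon-stimulated genes, 3 higher and 5 lower were called against controls 3 to 8 alone, with 6 and 1 for granule genes and 0 and 0 for proteasome subunits. Gzmc and Crip1 lost the call by limma voom with quality weights (adjusted p from 0.058 to 0.0927). Gzmc, Fasl, Il10 and Crip1 lost the call without edited library 1 (adjusted p from 0.0598 to 0.127). Trac, Lck, Cd6, Cblb, Nfkb1, Tnfaip3, Gzmc, Fasl, Il10, S100a11, Crip1 and Cfl1 lost the call without edited library 2 (adjusted p from 0.0778 to 0.289).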

How the data were processed

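RNA was sequenced in 18 libraries of mouse CD8+ T cells; 10 were compared here. The deposited tables hold the authors' estimated counts per gene and per transcript, as whole numbers. The tools named, per the submitters' processing notes, are DESeq2 1.30.1 in R 4.0.5, StringTie 2.1.0, the aligner STAR 2.7.1a and SAMtools 1.9. The same notes name the builds mm39 and mm10 without a role. The kit, per the labels, was a low-input one for polyA RNA. The strand setting is not given in the sources used here, so overlapping and antisense genes cannot be told apart.

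All 55536 Ensembl gene identifiers were found in GENCODE M21 (GRCm38). The 26248 numeric rows (0.0738 to 0.132% of counts) and the 97 spike-in rows, which hold 0 counts, were left out. Genes passing filterByExpr (minimum count 10) were scaled by TMM and tested with edgeR 4.0.16 (robust quasi-likelihood, prior count 2) in R 4.3.3, with Benjamini-Hochberg adjustment over all genes and a threshold of 0.05. Exon inclusion came from transcript counts by limma 3.58.1 (trend, robust) on the log2 odds with 0.5 added. It used exons with at least 20 counts in every library and 2 to 98% overall inclusion, and exons with the same transcripts were tested once. The poison exon share was tested by exact permutation.

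The 10 libraries were chosen by their labels and day. Earlier results of these data were known when they and the 80 gene lists (10 of them markers) were chosen. Named genes were Tra2b, the 15 largest rises and falls among called abundant genes (average log2 CPM 4 or more) with no overlap, predicted genes and pseudogenes excluded, list members (the first 3 and up to 6 with the smallest p), the 15 genes with the smallest exon p, and known targets; some genes that this rule names are not reported here. Cd74, Cd79b, Fas, Ighm, Igkc, Nupr1, Polq, Prkch, Snrpd1, Stc2, exons beyond these and the printed sequences were chosen after their values were seen. On simulated data with 2 against 8 libraries, over 18651 genes 29.9, 67.2 and 93.9% of 1.5-, 2- and 4-fold changes were recovered with 5 false calls. Over 5075 exons, 2.99, 13.4 and 45.5% of shifts of 1, 2 and 4 in log2 odds were recovered, with 2 false calls. The simulated libraries had no trend on gene length and no difference between controls 1 and 2 and controls 3 to 8. Their false calls therefore do not give the error rate of the calls reported here. Alternatives were DESeq2 1.42.0, RLE factors, library totals, 2 other filters, all groups in one fit, limma voom with quality weights, the replicate number as a block, both subsets of controls, a trend on length and GC content removed with mgcv 1.9.3, and leaving out each library.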

Additional observations from a re-analysis of the deposited data

Results flagged for a closer look

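Among the 8 control libraries, single libraries lay far from the other 7 for some of the values described: the gap to the nearest library, divided by the range, exceeded Dixon's critical value for 8 samples. This held for 17 of 196 values examined, and chance flags about 1 in 20 such groups. Control library 1 was the highest for Cxcr5 at 13.9 CPM against 2.24 to 5.33 CPM, Nasp at 310 CPM against 254 to 275 CPM and Tigit at 11.1 CPM against 4.43 to 6.93 CPM, and the lowest for Adam8 at 25.8 CPM against 56.4 to 80.5 CPM, Cxcr6 at 112 CPM against 180 to 239 CPM and Palm at 11.7 CPM against 24.3 to 33.1 CPM. Other libraries stood out for single genes. These were control library 6 for Aldh1l2 at 0.0643 CPM against 0 CPM in the other 7 and Gpt2 at 3.28 CPM against 0.678 to 1.84 CPM, and control library 4 for Angptl2 at 38.6 CPM against 13.8 to 24.9 CPM and Ddit3 at 10.1 CPM against 6.12 to 7.59 CPM. Control library 8 was highest for Lgals1 at 1880 CPM against 1460 to 1660 CPM and Mrps34 at 89.2 CPM against 49.9 to 66.7 CPM, control library 3 for Mdm2 at 128 CPM against 109 to 118 CPM, and control library 2 was lowest for Trib3 at 2.04 CPM against 3.47 to 4.52 CPM. For inclusion, control library 6 was highest for the Cep41 exon at 1.81% against 0% in the other 7, and control library 3 for 2 Ankrd12 exons, at 72.8% against 33.8 to 46.9% and 11.9% against 0 to 0.966%.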

How the results depend on the processing

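With only 2 edited libraries the counts depended on each of them. Without edited library 2, 651 genes were called, 304 higher and 347 lower, and over leaving out each library in turn the count ran from 651 to 2856 (304 to 1459 higher, 347 to 1405 lower). Exon calls ran from 48 to 97 (12 to 48 more included, 34 to 49 less included). Against control libraries 1 and 2 alone 5 genes were called, 5 higher and 0 lower by edgeR, with 2811 at an unadjusted p under 0.05, and 23 exons, 8 more and 15 less included. DESeq2 called 3789 genes, 1942 higher and 1847 lower. With the length and GC trend removed 791 genes were higher. Voom with quality weights called 694 lower, and the arcsine square root called 60 exons less included. None of the genes called under any alternative changed in the opposite direction to its call over all libraries. The share of Tra2b counts in transcripts with the poison exon differed by -4.28 percentage points against controls 1 and 2 (exact permutation p = 0.333). With 1 library left out in turn it differed by -6.29 to -5.30 points. Without edited library 1 or 2 the exact p was 0.111, the smallest that 9 libraries allow.

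Whether the replicate numbers pair the samples could not be settled. The residual correlations of same-numbered edited and control libraries were 0.0121 and 0.0595, and other pairs reached 0.0694. With only 2 edited libraries the residuals of one mirror those of the other, so these values cannot show or exclude pairing. With the replicate number as a block, which leaves libraries 1 and 2 of each group, edgeR called 0 genes (0 higher, 0 lower, 3536 at an unadjusted p under 0.05) and limma 0 exons (0 more, 0 less included, 362 at an unadjusted p under 0.05).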

Other observations

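For Eomes, a gene chosen after its values were seen, the edited libraries lay beside control libraries 1 and 2. It stood at 61.3 and 53.9 CPM in control libraries 1 and 2, at 11.7 to 19.5 CPM in controls 3 to 8 and at 57.1 and 57.4 CPM in the edited libraries. Its log2 fold change was 0.01 against controls 1 and 2 and 1.95 against controls 3 to 8. Of the 7435 abundant genes, 32 had means of controls 1 and 2 and of controls 3 to 8 that were at least 2-fold apart.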
